A study of Mus musculus with 12 samples.

Results

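The semaphorins with their plexin and neuropilin receptors, and the ephrins with their Eph receptors, were followed through sorted luminal and myoepithelial cells of the mouse mammary gland. Members were all measured gene symbols of these families: semaphorins of classes 3 to 7, plexins A to D, neuropilins 1 and 2, Eph receptors A and B, and ephrins A and B. This gave 52 of the 19938 genes measured, of which 20 were semaphorins, 9 plexins, 2 neuropilins, 13 Eph receptors and 8 ephrins. At or above the 40th percentile of mean level over all arrays were 40 of the 52. The 12 below it, whose signal was dim, were Efna3, Efnb3, Epha3, Epha5, Epha6, Epha8, Plxnb3, Plxnc1, Sema3a, Sema3d, Sema3e and Sema4f. One more gene of these families in the RefSeq gene table, the B receptor Ephb2, had no entry in the platform annotation and was not analysed here.

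Both systems carry short-range signals that steer cells and growing axons. Semaphorins are secreted or membrane-bound ligands, and most act through plexins, which switch small GTPases and the cytoskeleton. The secreted class 3 semaphorins mostly need a neuropilin beside the plexin. Ephrins are bound to the membrane by a lipid anchor (A class) or a transmembrane segment (B class), so they signal only between touching cells, through Eph receptor tyrosine kinases in one cell and through the ephrin itself in the other. In layered epithelia Eph and ephrin signals are known for sorting cells into compartments, and semaphorins and plexins for adhesion, branching and vessel growth. The mammary duct is such a layered tissue, with luminal cells lining the lumen and contractile myoepithelial cells around them.

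RNA was hybridised to 12 arrays, 3 for each of 4 groups. Wnt4-deleted females carried an MMTV promoter-driven Cre recombinase, 2 floxed Wnt4 alleles (Wnt4 fl/fl) and the mT/mG reporter. WT females carried the same Cre and the same reporter with unfloxed Wnt4 (Wnt4 wt/wt), so that both genotypes had Cre and reporter, and all were 10 to 14 weeks old. From each genotype, GFP+ cells, in which the Cre had acted, were sorted by CD24, a surface glycoprotein, into CD24 high cells, called luminal in the labels, and CD24 low cells, called myoepithelial. Wnt4 is a secreted Wnt ligand made by hormone-responsive luminal cells, and the MMTV promoter is active mainly in epithelium. The design text names mammary glands and the treatment notes name mammary grafts, and the source of the cells was not settled here.

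Arrays are called by the number in their title. Wnt4-deleted CD24 high arrays were 4, 12 and 16, WT CD24 high arrays 2, 10 and 14, Wnt4-deleted CD24 low arrays 3, 11 and 15, and WT CD24 low arrays 1, 9 and 13. Lists of 3 values below keep this order. By number the arrays form 3 sets (1 to 4, 9 to 12 and 13 to 16), each holding every group once. The labels tie no array to a separate animal or experiment, and the spread that p-values rest on may be partly technical. Levels are RMA values on the log2 scale, in which 1 unit is 2-fold, and a change is a difference of group means of 3 arrays. Levels were not compared between genes, since each probeset has its own brightness. A gene passed if its adjusted p from limma, over all genes in that comparison, was under 0.05.

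The labels of the fractions held in their markers. Krt5, a basal keratin, stood at 7.05, 6.34 and 6.82 in Wnt4-deleted and 6.03, 5.76 and 5.76 in WT CD24 high cells, against 11.22 to 11.93 in the 6 CD24 low arrays. Of the luminal markers measured, 16 of 17 were higher and none lower in CD24 high cells in both genotypes, and of 16 myoepithelial markers 16 in Wnt4-deleted and 15 in WT cells were lower. Cd24a itself was 0.57 higher in CD24 high cells of Wnt4-deleted mice (SE 0.16, adjusted p = 0.0329) and 0.49 higher in WT (SE 0.16, adjusted p = 0.06). Wnt4 stood at 6.11, 6.46 and 6.78 in Wnt4-deleted and at 7.42, 7.92 and 7.62 in WT CD24 high cells, without overlap (-1.20, SE 0.19, adjusted p = 0.416). Whether the Wnt4 probes lie inside the deleted stretch was not analysed here.

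The first comparison asked how the layers of the duct differ in these genes. Most of the family genes that differed were lower in CD24 high than in CD24 low cells. In Wnt4-deleted cells 18 of 52 passed, 1 higher and 17 lower, where 16.4% of all genes passed (8.23% higher, 8.22% lower). In WT cells 21 of 52 passed, 2 higher and 19 lower, where 16.1% of all genes passed (7.93% higher, 8.21% lower). The median change over the 52 genes was -0.50 in Wnt4-deleted and -0.55 in WT cells, beside 0.01 and 0.02 over all genes.

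Arrays of the fractions did not overlap for 26 members in Wnt4-deleted cells (3 higher, 23 lower; 29.3% of all genes) and for 31 in WT cells (3 higher, 28 lower; 32.8% of all genes). Over both genotypes together, all 6 CD24 high arrays lay below all 6 CD24 low arrays for 19 members (36.5%; 8.33% of all genes) and above them for 1, Sema4d (1.92%; 8.19% of all genes). In both genotypes 17 members passed, all in the same direction, and the share of all genes that passed in both was not counted. The 16 lower ones were Sema3c, Sema3d, Sema3f, Sema5a, Sema6a, Sema6d, Nrp2, Plxna2, Plxna4, Plxnd1, Epha4, Ephb1, Ephb4, Ephb6, Efnb1 and Efnb2, and each of them was lower within all 3 sets of both genotypes. The sets hold the same arrays as the tests, so their signs are no separate support. Epha7 passed in Wnt4-deleted cells alone and Efnb3, Ephb3, Plxna1 and Sema6c in WT cells alone, and no member passed the test of a difference between genotypes given further on.

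**Figure D1:**
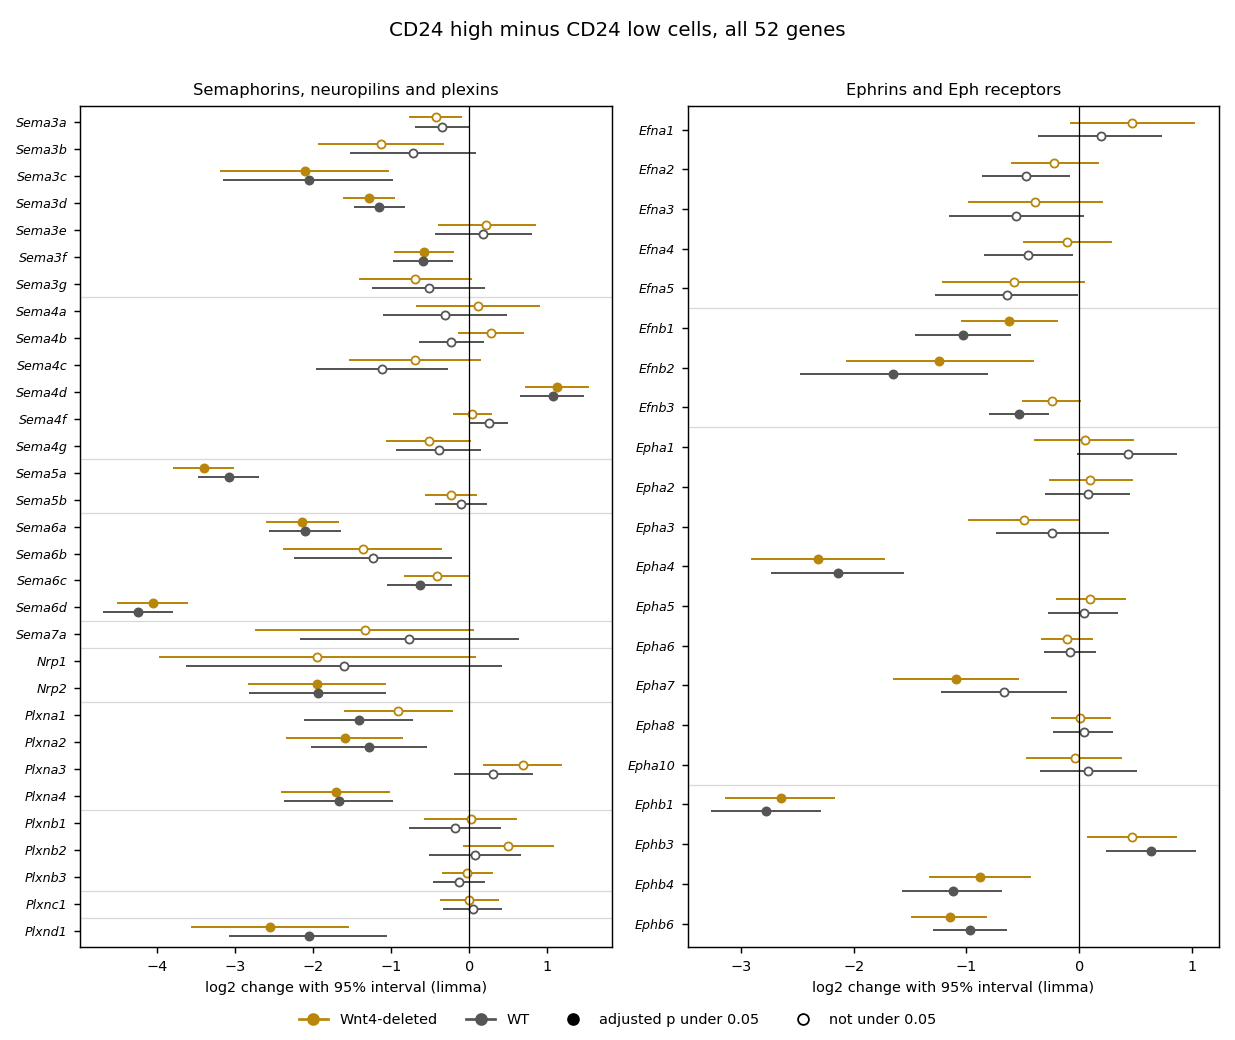
Difference of CD24 high minus CD24 low cells (log2, x axis) for each of the 52 genes (y axis, by family) in Wnt4-deleted (upper point of each pair) and WT cells (lower point); points are differences of means of 3 arrays, lines 95% intervals from limma, filled points adjusted p under 0.05. Most filled points lie left of 0, with Sema6d at -4.06 and -4.25 farthest out, and Sema4d is filled on the right in both genotypes.

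The largest differences were in transmembrane semaphorins of classes 5 and 6. Sema6d, a ligand of plexin A1, stood at 5.13, 5.39 and 5.01 in Wnt4-deleted and between 4.86 and 5.36 in the 3 arrays of WT CD24 high cells. In CD24 low cells it stood at 9.33, 9.49 and 8.90 in Wnt4-deleted and 9.02, 9.46 and 9.48 in WT mice. Every CD24 high array was thus over 3 units below every CD24 low array. Sema6d was 16.7-fold lower in Wnt4-deleted CD24 high cells (-4.06, SE 0.20, adjusted p = 3.73e-07) and 19.0-fold lower in WT CD24 high cells (-4.25, SE 0.20, adjusted p = 2.96e-07).

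Sema5a, which carries thrombospondin repeats in its outer part and binds plexin B3, followed with 5.33, 5.35 and 5.56 in Wnt4-deleted and 5.36, 5.88 and 5.60 in WT CD24 high cells. Its CD24 low values were 8.90, 9.05 and 8.50 in Wnt4-deleted and 8.70, 8.81 and 8.57 in WT mice. The fractions were far apart, by -3.40 in Wnt4-deleted (SE 0.17, adjusted p = 4.22e-07, 10.6-fold) and -3.08 in WT cells (SE 0.17, adjusted p = 7.26e-07, 8.48-fold). The other class 5 member, Sema5b, had changes of -0.23 and -0.10, neither passing.

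Sema6a, a ligand of plexins A2 and A4, stood at 7.10, 6.60 and 6.14 in Wnt4-deleted and 6.69, 6.56 and 6.70 in WT CD24 high cells, against 8.69, 8.91 and 8.65 in Wnt4-deleted and 8.58, 8.92 and 8.75 in WT CD24 low cells. It fell in CD24 high cells of both genotypes (-2.14, SE 0.21, adjusted p = 3.65e-05 in Wnt4-deleted, and -2.10, SE 0.21, adjusted p = 4.3e-05 in WT mice). The spread among the Wnt4-deleted CD24 high arrays, near 1 unit, was wider than in the other groups but left the fractions apart. Sema6c had -0.41 in Wnt4-deleted cells (adjusted p = 0.172) and fell in WT cells (-0.63, SE 0.18, adjusted p = 0.0381), a call that ended in 6 of the 12 fits with 1 array left out (without arrays 1, 9, 10, 13, 14 or 16, with changes from -0.68 to -0.53 and adjusted p up to 0.142).

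Sequences just upstream of the genes that led in each system, picked for their large changes between the fractions, are shown. They are the stretches from 250 to 31 bases before the outermost start in a RefSeq promoter table on GRCm38.p6, written 5′ to 3′ on the strand of the gene. For Sema6d and Epha4 that start differs by some bases from the edge of the gene in the RefSeq gene table, so the distances hold for the promoter table alone. Capitals mark GGGCGG on either strand, the core of the GC box that Sp-family factors bind.
Sema6d (chr2:124089719-124089938, + strand): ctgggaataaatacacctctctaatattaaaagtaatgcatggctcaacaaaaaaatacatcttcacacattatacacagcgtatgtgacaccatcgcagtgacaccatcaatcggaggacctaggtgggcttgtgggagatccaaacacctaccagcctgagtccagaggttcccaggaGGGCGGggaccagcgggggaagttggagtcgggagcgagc
Sema5a (chr15:32244563-32244782, + strand): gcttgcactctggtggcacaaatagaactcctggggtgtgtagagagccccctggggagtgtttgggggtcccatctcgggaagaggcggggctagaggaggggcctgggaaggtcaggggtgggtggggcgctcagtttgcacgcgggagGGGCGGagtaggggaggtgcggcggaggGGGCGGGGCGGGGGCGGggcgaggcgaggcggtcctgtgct
Ephb1 (chr9:102354724-102354943, - strand): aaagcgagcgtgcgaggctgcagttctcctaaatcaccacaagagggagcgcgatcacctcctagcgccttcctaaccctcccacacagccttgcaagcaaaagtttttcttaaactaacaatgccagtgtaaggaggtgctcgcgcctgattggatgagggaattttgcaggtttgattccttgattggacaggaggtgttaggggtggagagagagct
Epha4 (chr1:77515119-77515338, - strand): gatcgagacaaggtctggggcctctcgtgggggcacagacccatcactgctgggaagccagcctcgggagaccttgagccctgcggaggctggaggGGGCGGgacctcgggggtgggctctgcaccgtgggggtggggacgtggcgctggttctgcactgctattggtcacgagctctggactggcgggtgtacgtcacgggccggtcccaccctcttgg

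The stretches differ in base makeup, with 50.5% G and C for Sema6d, 70.5% for Sema5a, 51.4% for Ephb1 and 68.6% for Epha4. GGGCGG was found 1 time for Sema6d, 4 times for Sema5a (3 of them in 1 run, in which the first and the next share a base), 0 times for Ephb1 and 1 time for Epha4. Among the 32851 such stretches of all genes 28.5% held it, and among the 60 of the 46 members with an entry 66.7% did. The stretches were not matched for G and C content or for their number per gene, and the shares were not tested against each other. A match of letters is a description and no measurement of binding, and shared control of these genes was not tested.

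Among the secreted class 3 semaphorins 3 of 7 passed in each genotype, all lower in CD24 high cells. Sema3c, which signals through neuropilins and plexin D1, stood at 7.81, 5.42 and 6.57 in Wnt4-deleted and 6.72, 7.05 and 6.79 in WT CD24 high cells. In CD24 low cells it stood at 9.08, 8.46 and 8.58 in Wnt4-deleted and 9.59, 8.51 and 8.65 in WT mice. The Wnt4-deleted CD24 high arrays were the most scattered of its 4 groups, yet all 6 CD24 high arrays lay below the CD24 low range. Sema3c fell in Wnt4-deleted (-2.11, SE 0.49, adjusted p = 0.0122) and in WT CD24 high cells (-2.06, SE 0.49, adjusted p = 0.0136), and the WT call ended without array 1 (-1.73, adjusted p = 0.0562).

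Sema3d, a dim gene, stood at 3.62 to 3.88 in all CD24 high arrays and at 4.57 to 5.24 in all CD24 low arrays, and fell in both genotypes (-1.28, SE 0.14, adjusted p = 0.000115 in Wnt4-deleted, and -1.15, SE 0.14, adjusted p = 0.000261 in WT cells). Sema3f, the classical ligand of neuropilin 2, fell less (-0.58, SE 0.17, adjusted p = 0.0378 in Wnt4-deleted, and -0.59, SE 0.17, adjusted p = 0.0345 in WT cells). These Sema3f calls were close to the threshold. The first ended without array 3, 4, 9, 11, 14, 15 or 16 (adjusted p up to 0.131) and the other without array 9, 10, 13, 14 or 16 (up to 0.142). Sema3b was at -1.13 (adjusted p = 0.0577) and -0.72 (adjusted p = 0.243), with 7.31 and 6.90 in CD24 low arrays 3 and 1, above a range of 5.80 to 6.06 among the 4 remaining CD24 low arrays. Sema3a, the ligand of neuropilin 1 that collapses growth cones, had -0.43 and -0.35, Sema3g -0.69 and -0.52, and Sema3e, which binds plexin D1 without a neuropilin, 0.22 and 0.18, none of them passing.

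Of the 6 class 4 semaphorins 1 passed in each genotype. Sema4d, a transmembrane ligand of plexin B1 that can be shed, was the one member that passed as higher in CD24 high cells in both genotypes. It stood at 7.18, 7.17 and 7.64 in Wnt4-deleted and 7.18, 7.41 and 7.51 in WT CD24 high cells, against 6.54, 6.18 and 5.89 in Wnt4-deleted and 6.25, 6.29 and 6.36 in WT CD24 low cells. The rise was 1.13 in Wnt4-deleted (SE 0.18, adjusted p = 0.00131, 2.18-fold) and 1.07 in WT cells (SE 0.18, adjusted p = 0.00191, 2.10-fold). With the mean of its 2 probesets it was smaller, 0.55 (adjusted p = 0.00572) and 0.73 (adjusted p = 0.00103).

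No other class 4 member passed. Sema4c, a ligand of plexin B2, had -0.70 (adjusted p = 0.27) and -1.12 (adjusted p = 0.0701), with 7.54 in CD24 low array 15 where its 5 fellow CD24 low arrays held 8.75 to 9.17. Without array 15 the Sema4c changes were -1.17 (SE 0.29, adjusted p = 0.0221) and -1.12 (SE 0.26, adjusted p = 0.0136). That array was left out after its value was seen, so these p-values are a description and no separate support. The changes of Sema4a, Sema4b, Sema4f and Sema4g ran from -0.52 to 0.28 over both genotypes.

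**Figure D2:**
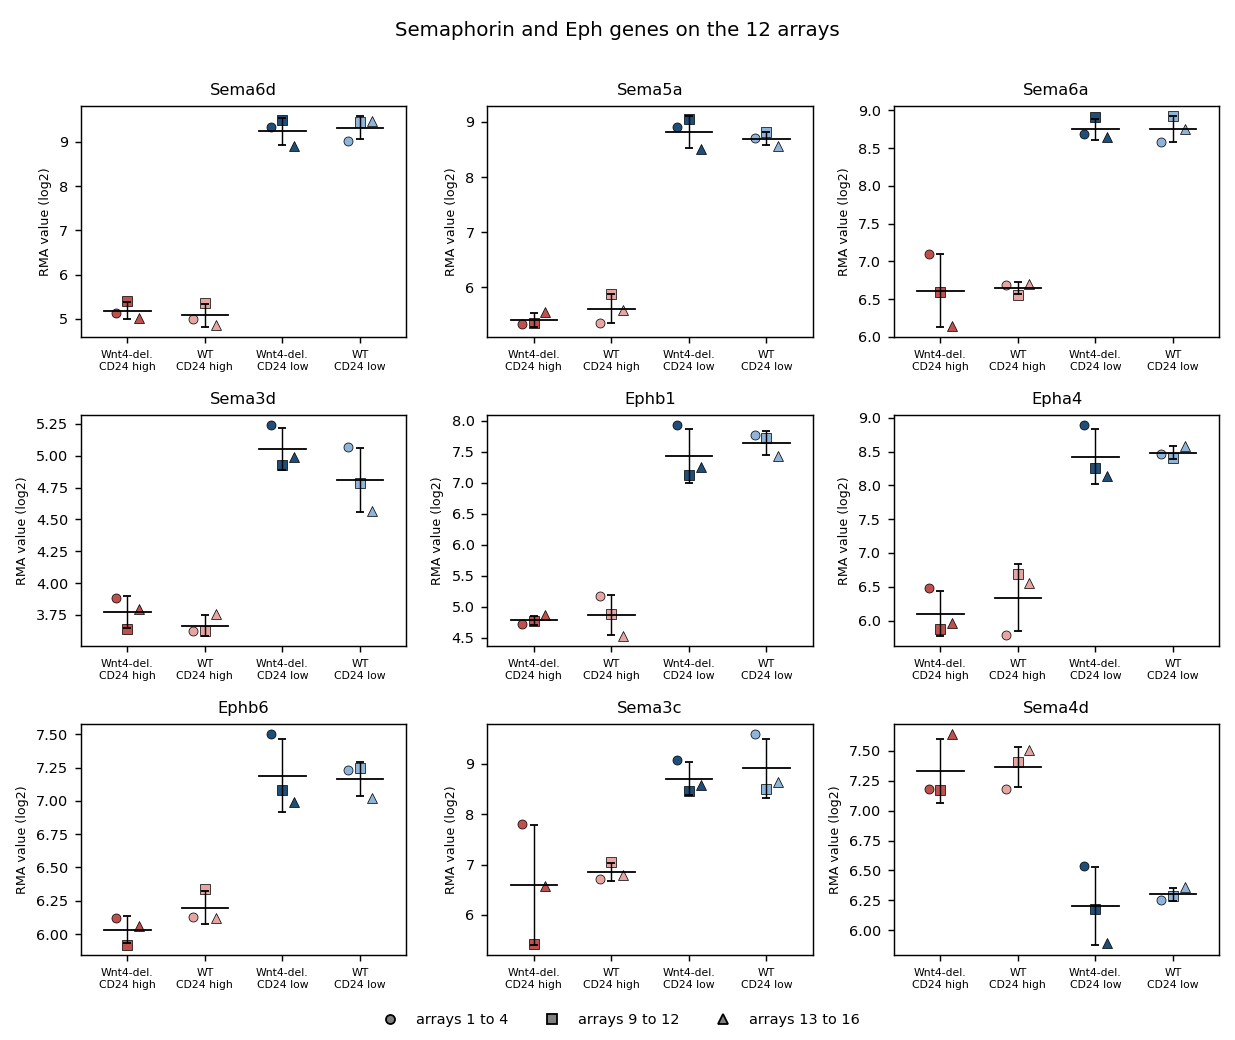
Array by array RMA values (log2, y axis) of 9 genes in the 4 groups (x axis); symbols mark the set of title numbers, horizontal lines the mean and bars the SD of 3 arrays. For 8 of them, led by Sema6d, all CD24 high arrays lie below all CD24 low arrays, and for Sema4d above them.

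Each plexin and neuropilin that passed was lower in CD24 high cells: Plxna2, Plxna4, Plxnd1 and Nrp2 in both genotypes and Plxna1 in WT cells. Plxnd1, the receptor of Sema3e known from vessel patterning, stood at 5.29, 5.85 and 4.99 in Wnt4-deleted and 5.43, 5.64 and 5.84 in WT CD24 high cells. In CD24 low cells it stood at 7.33, 8.79 and 7.69 in Wnt4-deleted and 6.69, 7.93 and 8.49 in WT mice. It fell in Wnt4-deleted (-2.56, SE 0.46, adjusted p = 0.00262) and in WT CD24 high cells (-2.06, SE 0.46, adjusted p = 0.00949). The CD24 low arrays of a genotype spread over more than 1 unit, and the fractions still did not overlap.

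Plxna4, a receptor of class 6 semaphorins and a partner of neuropilins, fell in Wnt4-deleted (-1.71, SE 0.31, adjusted p = 0.00299) and in WT CD24 high cells (-1.67, SE 0.31, adjusted p = 0.00354). Its 6 CD24 high arrays held 5.31 to 5.76 and its 6 CD24 low arrays 6.77 to 8.24. Plxna2, a receptor of Sema6a, stood at 5.27, 6.13 and 6.08 in Wnt4-deleted and 5.40, 5.57 and 5.69 in WT CD24 high cells, against 6.69, 7.76 and 7.80 in Wnt4-deleted and 6.31, 7.17 and 7.05 in WT CD24 low cells. Its change was -1.59 in Wnt4-deleted (SE 0.33, adjusted p = 0.00701) and -1.29 in WT cells (SE 0.33, adjusted p = 0.0221), without overlap in either. The WT call of Plxna2 ended without array 2 (-1.21, adjusted p = 0.0662), 9 (-1.12, adjusted p = 0.0879), 10 (-1.30, adjusted p = 0.0614) or 13 (-1.19, adjusted p = 0.0839).

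Plxna1, the receptor of Sema6d, had 7.78, 7.74 and 7.87 in Wnt4-deleted and 7.74, 7.91 and 8.06 in WT CD24 high cells, against 9.38, 8.97 and 7.77 in Wnt4-deleted and 9.38, 9.38 and 9.19 in WT CD24 low cells. All CD24 low arrays but array 15 lay above every CD24 high array. The change was -1.41 in WT cells (SE 0.31, adjusted p = 0.00925) and -0.91 in Wnt4-deleted cells (SE 0.31, adjusted p = 0.0732). Without array 15 Wnt4-deleted cells had -1.38 (SE 0.15, adjusted p = 0.000219), a fit chosen after the value of that array was seen. Plxna3 had positive values, 0.69 in Wnt4-deleted (adjusted p = 0.0609) and 0.31 in WT cells (adjusted p = 0.457).

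The B plexins, receptors of class 4 semaphorins such as Sema4d, did not pass in either genotype. Their changes were 0.02 and -0.18 for Plxnb1, 0.50 and 0.07 for Plxnb2, and -0.03 and -0.13 for the dim Plxnb3, in Wnt4-deleted and WT cells. The 95% intervals of Plxnb1 ran from -0.56 to 0.60 in Wnt4-deleted and from -0.76 to 0.40 in WT cells. Plxnc1, the receptor of Sema7a, had 0.00 and 0.05 at a dim level.

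Neuropilin 2, a co-receptor of class 3 semaphorins and of vascular endothelial growth factors, stood at 5.08, 6.04 and 5.29 in Wnt4-deleted and 5.04, 5.72 and 5.17 in WT CD24 high cells, against 6.55, 7.98 and 7.73 in Wnt4-deleted and 6.68, 7.44 and 7.64 in WT CD24 low cells. Nrp2 fell in both (-1.95, SE 0.39, adjusted p = 0.00556 in Wnt4-deleted, and -1.94, SE 0.39, adjusted p = 0.00582 in WT cells). Its homologue Nrp1 stood at 4.92, 8.71 and 7.98 in Wnt4-deleted and 5.06, 7.76 and 7.92 in WT CD24 low cells, with 4.76 to 5.63 in all CD24 high arrays. CD24 low arrays 3 and 1 thus lay in the CD24 high range and the remaining 4 over 2 units above it, and Nrp1 did not pass (-1.95, SE 0.91, adjusted p = 0.195, and -1.60, SE 0.91, adjusted p = 0.315).

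Of the Eph receptors 5 of 13 passed in each genotype. Ephb1, which binds B ephrins, was the farthest apart, with 4.72, 4.77 and 4.86 in Wnt4-deleted and 5.18, 4.88 and 4.53 in WT CD24 high cells. Its CD24 low values were 7.93, 7.12 and 7.26 in Wnt4-deleted and 7.78, 7.72 and 7.43 in WT mice. It was 6.29-fold lower in Wnt4-deleted (-2.65, SE 0.22, adjusted p = 1.15e-05) and 6.86-fold lower in WT CD24 high cells (-2.78, SE 0.22, adjusted p = 8.11e-06). With the mean of its 2 probesets the changes were -1.69 and -1.88, and both passed.

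Epha4, which binds ephrins of both classes, stood at 6.48, 5.87 and 5.96 in Wnt4-deleted and 5.78, 6.69 and 6.55 in WT CD24 high cells, against 8.89, 8.25 and 8.14 in Wnt4-deleted and 8.46, 8.40 and 8.59 in WT CD24 low cells. It fell in Wnt4-deleted (-2.32, SE 0.27, adjusted p = 0.000132) and in WT CD24 high cells (-2.14, SE 0.27, adjusted p = 0.000233), and no array of one fraction came within 1 unit of the other. Further B receptors had smaller changes. Ephb6, whose kinase domain is inactive, held 5.92 to 6.34 in the 6 CD24 high and 6.99 to 7.50 in the 6 CD24 low arrays, and fell in Wnt4-deleted (-1.15, SE 0.15, adjusted p = 0.000272) and in WT cells (-0.97, SE 0.15, adjusted p = 0.000907). Ephb4, the partner of ephrin B2 in vessels, held 6.71 to 7.20 in CD24 high and 7.26 to 8.22 in CD24 low arrays, the lowest of these being array 15. It fell in Wnt4-deleted (-0.88, SE 0.20, adjusted p = 0.0105) and in WT cells (-1.12, SE 0.20, adjusted p = 0.0025), and in Wnt4-deleted cells its call ended without array 16 (-0.80, adjusted p = 0.0507).

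Of the 13 Eph receptors, 5 had a positive change in Wnt4-deleted and 6 in WT cells. Ephb3 was the only one of them that passed as higher in CD24 high cells. It stood at 7.85, 7.74 and 8.13 in Wnt4-deleted and 8.27, 8.51 and 8.47 in WT CD24 high cells, against 7.58, 7.56 and 7.19 in Wnt4-deleted and 7.44, 7.93 and 7.97 in WT CD24 low cells. It passed in WT cells (0.64, SE 0.18, adjusted p = 0.0289) and not in Wnt4-deleted cells (0.47, SE 0.18, adjusted p = 0.0982), with no overlap within either genotype. The WT call ended without array 1 (0.47, adjusted p = 0.104), array 10 (0.59, adjusted p = 0.0976) or array 14 (0.61, adjusted p = 0.0897).

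Among the other A receptors 1 passed, in 1 genotype. Epha7 fell in Wnt4-deleted cells (-1.09, SE 0.25, adjusted p = 0.0117) and had -0.67 in WT cells (adjusted p = 0.103). Epha1, Epha2, Epha3, Epha5, Epha6, Epha8 and Epha10 had changes from -0.49 to 0.10 in Wnt4-deleted and from -0.24 to 0.43 in WT cells, and Epha3, Epha5, Epha6 and Epha8 were dim on all arrays. Epha2, an epithelial receptor of ephrin A1, stood at 8.94 to 9.52 in CD24 high and 8.66 to 9.54 in CD24 low arrays.

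Among the ephrins all 3 of the B class passed in WT cells and 2 of 3 in Wnt4-deleted cells. None of the 5 A ephrins passed in either, though 4 of 5 were negative in both genotypes. In WT cells 3 of them had an unadjusted p under 0.05, beside 26.4% of all genes. In Wnt4-deleted cells 0 of them did, beside 27.9% of all genes. The classes were not tested against each other. Efnb2, the ligand of Ephb4, stood at 8.83, 7.19 and 7.72 in Wnt4-deleted and 7.38, 8.22 and 7.97 in WT CD24 high cells, against 9.41, 9.40 and 8.62 in Wnt4-deleted and 9.59, 9.51 and 9.41 in WT CD24 low cells. In Wnt4-deleted mice CD24 high array 4 lay above CD24 low array 15, and in WT mice the fractions were apart. Efnb2 fell in WT cells (-1.65, SE 0.37, adjusted p = 0.0109) and more narrowly in Wnt4-deleted cells (-1.24, SE 0.37, adjusted p = 0.0446). The call in Wnt4-deleted cells ended in 9 of the 12 fits with 1 array left out (without array 1, 3, 9, 10, 11, 12, 13, 14 or 16), with changes down to -0.87 and adjusted p up to 0.151, both without array 12.

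Efnb1 stood at 7.10 to 7.34 in the 6 CD24 high arrays and at 7.37 to 8.48 in the 6 CD24 low arrays, without overlap. It fell in Wnt4-deleted (-0.62, SE 0.19, adjusted p = 0.0461) and in WT cells (-1.03, SE 0.19, adjusted p = 0.00327), and its call in Wnt4-deleted cells likewise ended in 9 of 12 such fits (without array 2, 3, 4, 9, 10, 11, 12, 14 or 16, adjusted p up to 0.159). Efnb3, a dim gene, had -0.24 (adjusted p = 0.196) and -0.53 (SE 0.11, adjusted p = 0.00821). Among the A ephrins the changes ran from -0.58 (Efna5) to 0.47 (Efna1) in Wnt4-deleted and from -0.64 (Efna5) to 0.19 (Efna1) in WT cells.

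Set beside each other, some ligands and receptors known to bind both passed as lower in CD24 high cells: Sema6d with Plxna1 in WT cells, Sema6a with Plxna2 and Plxna4, Sema3f with Nrp2, Sema3c with Nrp2 and Plxnd1, and Efnb2 with Ephb4. These pairs were picked after their values were seen. In other pairs 1 gene passed and the other did not: Sema4d with Plxnb1, Sema5a with Plxnb3, Plxnd1 with Sema3e, and Sema6d with Plxna1 in Wnt4-deleted cells. Transcript values do not show where the proteins sit or whether they bind. In bulk samples such as these, fewer cells of a type and less RNA per cell cannot be told apart.

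Other genes of both pathways were counted from lists of 40 written by hand. Of the semaphorin partners, 13 passed in Wnt4-deleted cells (4 higher, 9 lower) and 12 in WT cells (4 higher, 8 lower), which is 32.5% and 30% of the list beside 16.4% and 16.1% of all genes. Lower were Itga1, a collagen-binding integrin chain (-4.17, SE 0.22, and -3.77, SE 0.22), the collapsin response mediators Dpysl2 (-3.24, SE 0.38, and -3.68, SE 0.38) and Dpysl3 (-3.30, SE 0.30, and -3.25, SE 0.30), Mical2, an oxidase that takes actin apart (-2.39, SE 0.28, and -2.71, SE 0.28), and the small GTPase Rnd1 (-2.11, SE 0.29, and -2.28, SE 0.29). Higher were the GTPase Rras2 (1.44, SE 0.15, and 1.89, SE 0.15), the receptor kinase Met, which can pair with plexin B1 (1.66, SE 0.28, and 1.75, SE 0.28), the adaptor Gipc1 (1.40 and 0.96) and the kinase Cdk5 (0.66 and 0.56).

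Of the Eph and ephrin partners, 17 passed in each genotype, 9 higher and 8 lower in Wnt4-deleted and 11 higher and 6 lower in WT cells, or 42.5% of the list beside 16.4% and 16.1% of all genes. Higher were the adaptor Grb7 (2.25, SE 0.25, and 2.02, SE 0.25), Adam10, a protease that sheds ephrins (1.83, SE 0.14, and 1.62, SE 0.14), the lipid phosphatase Inppl1 (1.55, SE 0.23, and 1.09, SE 0.23), the exchange factor Arhgef16 (1.34 and 0.97) and the GTPase-activating Chn1 (1.23 and 0.95). Lower were the kinase Fyn (-2.43, SE 0.21, and -2.15, SE 0.21), the phosphatase Ptpn13 (-1.43, SE 0.28, and -1.45, SE 0.28), the exchange factor Vav3 (-1.21, SE 0.21, and -1.14, SE 0.21), Chn2 (-1.37 and -0.94) and the kinase Abl1 (-0.59 and -0.91). Adjusted p-values of the 19 partners named ran up to 0.037. Rasa1 stood in both lists and did not pass.

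How far the CD24 low level of a member was shared between sets of arrays differed from gene to gene. In CD24 low arrays 1 and 3, Nrp1, Nrp2, Sema6b and Sema7a all lay at least 0.76 below the 4 remaining CD24 low arrays, and Sema3b lay at least 0.84 above them. Sema7a, a lipid-anchored semaphorin, stood at 5.84, 8.09 and 7.58 in Wnt4-deleted and 5.36, 6.82 and 7.88 in WT CD24 low cells, with 5.51 to 6.37 in CD24 high cells. Its change between fractions was 0.16, -2.58 and -1.59 in the 3 sets of Wnt4-deleted mice and 1.01, -1.29 and -2.01 in those of WT mice, so its sign turned between sets.

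Without arrays 1 to 4, a comparison of 2 arrays against 2, members that had not passed did so: Nrp1 (-2.84, SE 0.25, adjusted p = 0.000401, and -2.53, SE 0.25, adjusted p = 0.000751), Sema6b (-1.86, adjusted p = 0.000774, and -1.55, adjusted p = 0.0019) and Sema7a (-2.09, adjusted p = 0.00707, and -1.65, adjusted p = 0.0199). Sema6b, a ligand of plexin A4, had stood over all arrays at -1.36 (adjusted p = 0.0655) and -1.23 (adjusted p = 0.0987). Nrp1, Sema6b and Sema7a were taken up because their CD24 low arrays 1 and 3 lay apart, and this fit leaves those arrays out. Their passing follows in part from that choice and is no separate support. The share of all genes that passed in this fit is not given here.

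Markers of other cell types moved with these genes. The 14 endothelial markers, among them Pecam1 and Cdh5, averaged 5.28 to 6.46 in Wnt4-deleted and 5.58 to 6.16 in WT CD24 high arrays. In CD24 low cells they averaged 6.54, 9.14 and 8.89 in Wnt4-deleted and 6.65, 8.05 and 8.83 in WT arrays, and 8 of 14 in Wnt4-deleted and 5 of 14 in WT cells were lower in CD24 high cells. Pecam1 alone stood at 7.34 in array 3 and 7.40 in array 1, below its 9.20 to 10.39 in the remaining CD24 low arrays. Of the CD24 low arrays, numbers 11 and 9 had the highest fibroblast marker means (8.19 and 8.49, where the rest held 6.07 to 6.93), and numbers 3 and 1 the highest skeletal muscle marker means (8.16 and 7.13, where the rest held 5.29 to 5.64). Numbers 3 and 1 also had the lowest CD24 low means of 3 further lists. These were fibroblast (6.15 and 6.07, the rest from 6.31), pericyte (5.92 and 5.71, the rest from 6.09) and immune markers (4.77 and 4.91, the rest from 5.33).

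With the endothelial mean of each array as a covariate, which itself differs between the fractions, the changes of some receptors and of Sema3f shrank. Nrp2 then had -0.62 in Wnt4-deleted (adjusted p = 0.0844) and -0.81 in WT cells (adjusted p = 0.0158), Plxnd1 -1.23 (adjusted p = 0.0858) and -0.94 (adjusted p = 0.138), and Plxna4 -1.20 (adjusted p = 0.107) and -1.24 (adjusted p = 0.06). Plxna2 had -0.58 in Wnt4-deleted (adjusted p = 0.24) and -0.43 in WT cells (adjusted p = 0.34). Sema3f, a ligand of neuropilin 2, had -0.27 (adjusted p = 0.57) and -0.33 (adjusted p = 0.37). Calls also ended for Efnb1 (-0.65, adjusted p = 0.21), Efnb2 (-1.70, adjusted p = 0.0705), Ephb4 (-0.86, adjusted p = 0.106) and Sema4d (0.89, adjusted p = 0.0507) in Wnt4-deleted cells and for Efnb3 (-0.52, adjusted p = 0.0583), Ephb3 (0.71, adjusted p = 0.0841) and Sema6c (-0.55, adjusted p = 0.213) in WT cells. Sema3c moved the other way, at -3.19 (adjusted p = 0.00492) and -2.98 (adjusted p = 0.0039). Epha4, Ephb1, Ephb6, Sema3d, Sema5a, Sema6a and Sema6d passed in both genotypes in each of the 24 alternative fits, with both marker covariates among them, except that the filter on dim genes leaves Sema3d untested. Both marker means differ between the fractions, so the covariate fits cannot separate the part of endothelial or other cells from the fraction itself. That part was not tested for any gene, including those that passed in every fit.

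**Figure D3:**
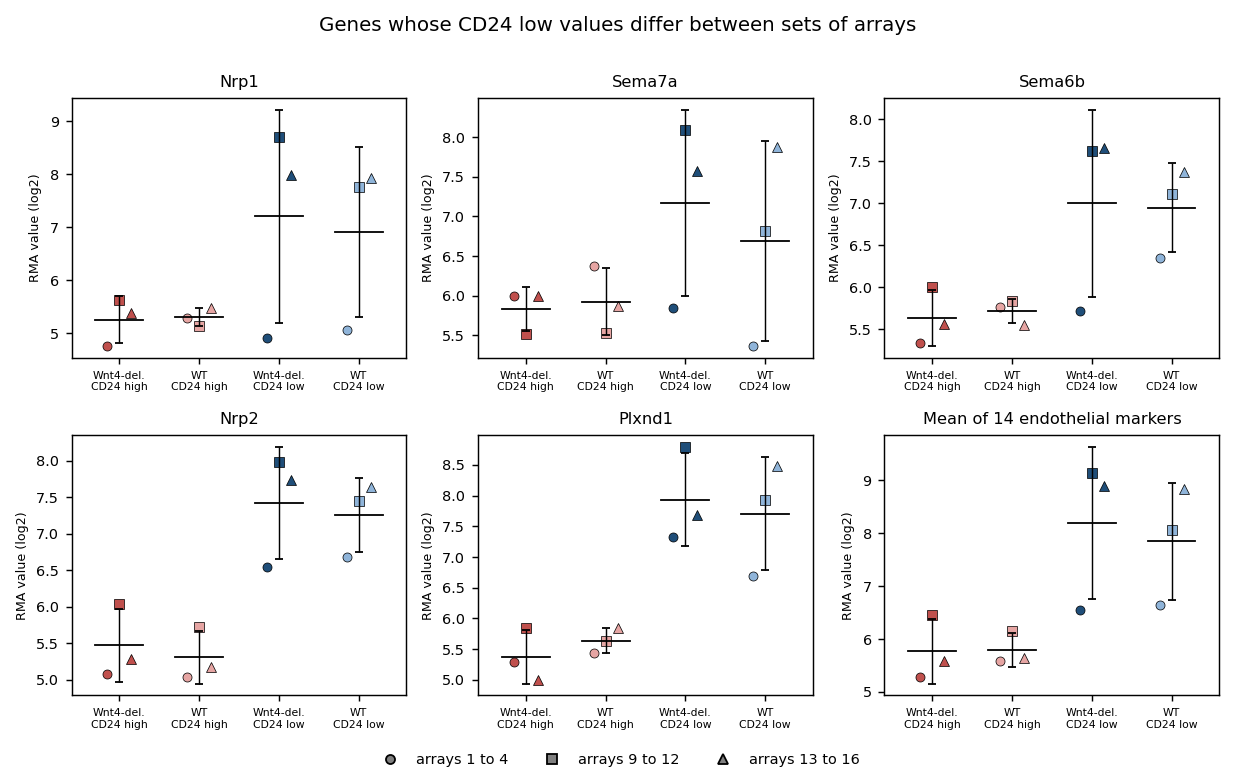
Array by array RMA values (log2, y axis) of 5 genes and the mean of 14 endothelial markers in the 4 groups (x axis); symbols mark the set of title numbers, horizontal lines the mean and bars the SD of 3 arrays. In CD24 low cells the circles (arrays 3 and 1) lie below the other symbols, for Nrp1 at 4.92 and 5.06 against 7.76 to 8.71.

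The comparison of genotypes asked what loss of Wnt4 does to these genes in each layer. In CD24 high cells none of the 52 passed in limma, where 0.00502% of all genes did (1 gene). At an unadjusted p under 0.05 there was 1 member, Ephb3, where 1.99% of all genes had such a p. The median change of the members was -0.06, beside -0.03 over all genes, and 35 of 52 were negative, beside 56.6% of all genes. Arrays of the genotypes did not overlap for 5 members, all lower in Wnt4-deleted cells, where 7% of all genes did not overlap (2.04% higher, 4.97% lower).

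Ephb3 had the largest of these differences, with the values given above and a change of -0.51 in Wnt4-deleted CD24 high cells (SE 0.18, unadjusted p = 0.0148, adjusted p = 1), and without array 12 its unadjusted p was 0.0578 (-0.42). Epha2 stood at 8.99, 8.94 and 9.13 in Wnt4-deleted and 9.18, 9.52 and 9.24 in WT CD24 high cells (-0.29, SE 0.17, adjusted p = 1). Sema3b stood at 5.08, 5.34 and 5.34 in Wnt4-deleted and 5.77, 5.38 and 5.48 in WT CD24 high cells (-0.28). Ephb6 had 6.12, 5.92 and 6.06 in Wnt4-deleted and 6.13, 6.34 and 6.12 in WT CD24 high cells (-0.16), and Sema5b -0.12. The smaller changes depended on single arrays: without array 10 Epha2 had -0.19 and Ephb6 -0.09, and without array 2 Sema3b had -0.17. For all 5 the gap between the nearest arrays of the genotypes was smaller than the range of the arrays within either one. Krt5, the basal keratin, also stood apart between these groups (0.89, SE 0.21, adjusted p = 1), with the levels given above, and its part in these values was not tested.

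In CD24 low cells none passed either, again where 0.00502% of all genes did. At an unadjusted p under 0.05 there were 2 members, Sema4b and Efnb3, where 3.06% of all genes had such a p. Arrays did not overlap for 3 members, all of them ephrins and all lower in Wnt4-deleted cells, where 6.77% of all genes did not overlap (2.65% higher, 4.12% lower). Efnb3 stood at 5.33, 5.29 and 5.24 in Wnt4-deleted and 5.53, 5.49 and 5.70 in WT CD24 low cells (-0.29, SE 0.11, unadjusted p = 0.0288, adjusted p = 1), with an unadjusted p of 0.0543 without array 11 (-0.29), 0.11 without array 13 (-0.22) and 0.0695 without array 15 (-0.27). Efna2 stood at 5.41, 5.75 and 5.92 in Wnt4-deleted and 5.95, 6.01 and 6.09 in WT CD24 low cells (-0.32, SE 0.17, adjusted p = 1), and had -0.18 without array 3. Efnb2 had -0.36 (SE 0.37), with groups that touched to the second decimal, and -0.09 without array 15.

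The 8 ephrins all had negative values in this comparison, from -0.46 (Efna3) to -0.25 (Efna5), with a median of -0.34 beside -0.02 over all genes, of which 54.6% were negative. None passed. The sign of the group difference was negative for all 8 also without array 15 (median -0.28) and without any 1 other array or set, with medians from -0.42 to -0.17. These fits share most of their arrays, and the 8 genes were read on the same arrays, so a kept sign is little support of its own. Within single sets 4 of the 8 changed sign: Efna3 had 0.12 and Efna4 0.05 in arrays 9 to 12, and Efna5 had 0.12 and Efnb1 0.04 in arrays 1 to 4. In CD24 high cells 5 of 8 were negative and the median was -0.03, and leaving out an array or a set gave 2 to 8 negative and medians from -0.17 to 0.07. Efna1, Efna3 and Efna4 lie next to each other on chromosome 3.

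The difference between these effects was tested for every member, and none passed (0% of all genes passed). No member had an unadjusted p under 0.05 in it, where 1.37% of all genes did. The smallest p-values were those of Sema4b (0.51, SE 0.26, unadjusted p = 0.0781), Efnb3 (0.29, SE 0.16, unadjusted p = 0.102) and Efnb1 (0.41, SE 0.27, unadjusted p = 0.156), each with the Wnt4 effect more negative in CD24 low cells. Without array 15 the difference was 0.30 for Sema4b (unadjusted p = 0.185) and 0.17 for Efnb1 (unadjusted p = 0.395). Sema4b stood at 7.49, 7.02 and 6.63 in Wnt4-deleted and 7.69, 7.49 and 7.61 in WT CD24 low cells. In CD24 high cells it stood at 7.32, 7.17 and 7.50 in Wnt4-deleted and at 7.37 in each of the 3 WT arrays.

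**Figure D4:**
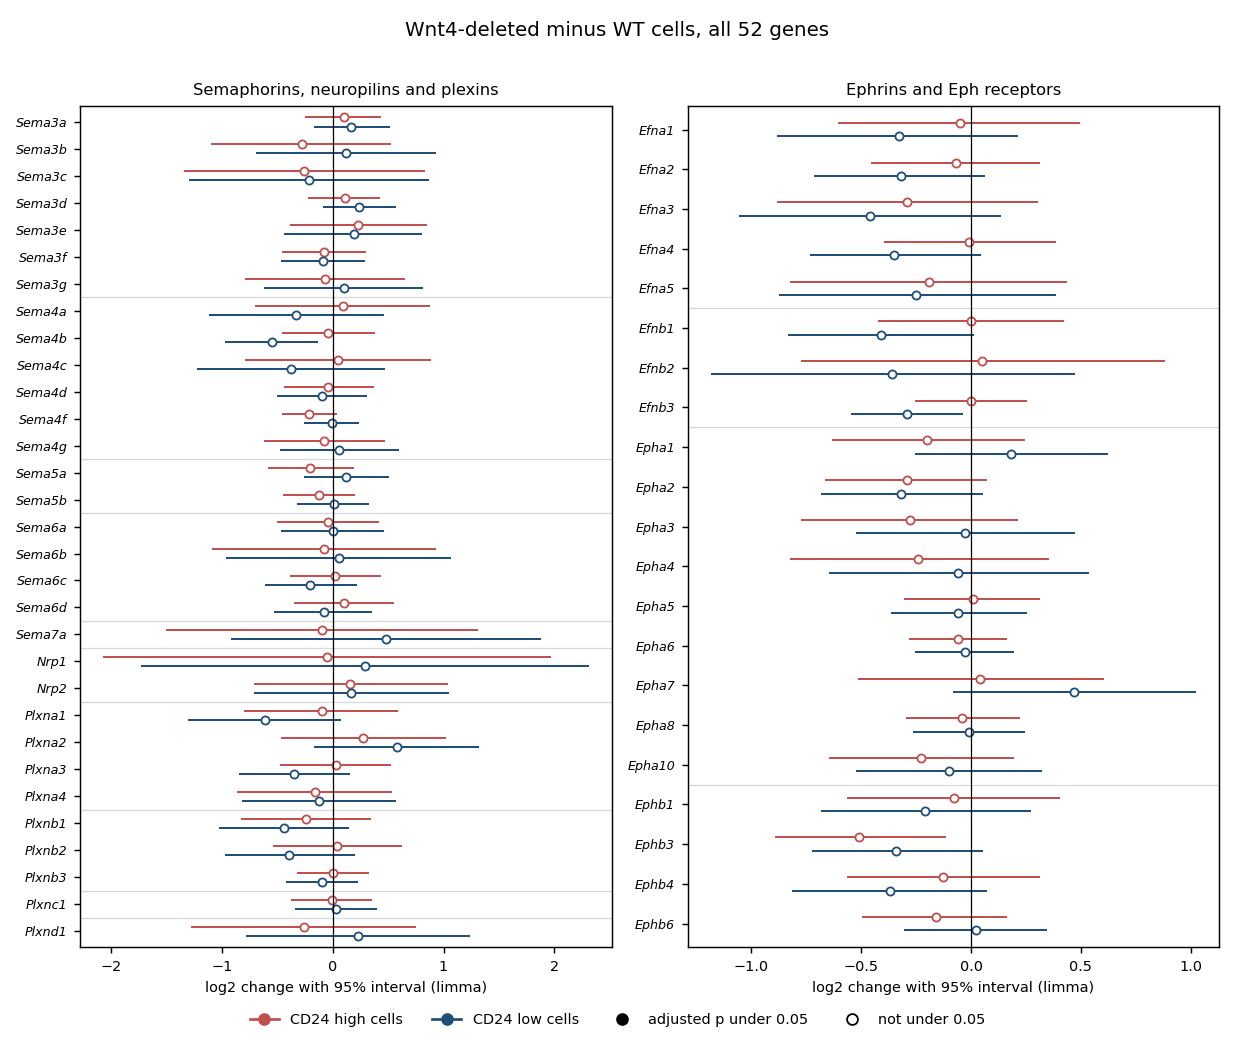
Difference of Wnt4-deleted minus WT cells (log2, x axis) for each of the 52 genes (y axis, by family) in CD24 high (upper point of each pair) and CD24 low cells (lower point); points are differences of means of 3 arrays, lines 95% intervals from limma, and open points did not reach an adjusted p under 0.05. No point is filled, Ephb3 lies at -0.51 in CD24 high cells, and all 8 ephrins lie left of 0 in CD24 low cells.

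One Wnt4-deleted CD24 low array weighed on many of these values. Array 15 had the lowest of the 6 CD24 low values for 26 of 52 members, where it was lowest for 24% of all genes. It was lowest by over 0.5 for 8 members (15.4%, beside 2.75% of all genes): Sema4a, Sema4c, Plxna1, Plxnb1, Plxnb2, Ephb4, Efnb1 and Efnb2. Plxnb1, for example, stood at 6.99 in array 15, below a range of 7.89 to 8.34 over the 5 remaining CD24 low arrays. No other CD24 low array was lowest by over 0.5 for more than 1 member. Without array 15 the change of Plxna1 in Wnt4-deleted against WT CD24 low cells was -0.14 (SE 0.15) in place of -0.61 (SE 0.31), that of Sema4b -0.34 (SE 0.16) in place of -0.55 (SE 0.19), and 28 of 52 members were negative in place of 34. Why array 15 differed was not tested.

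**Figure D5:**
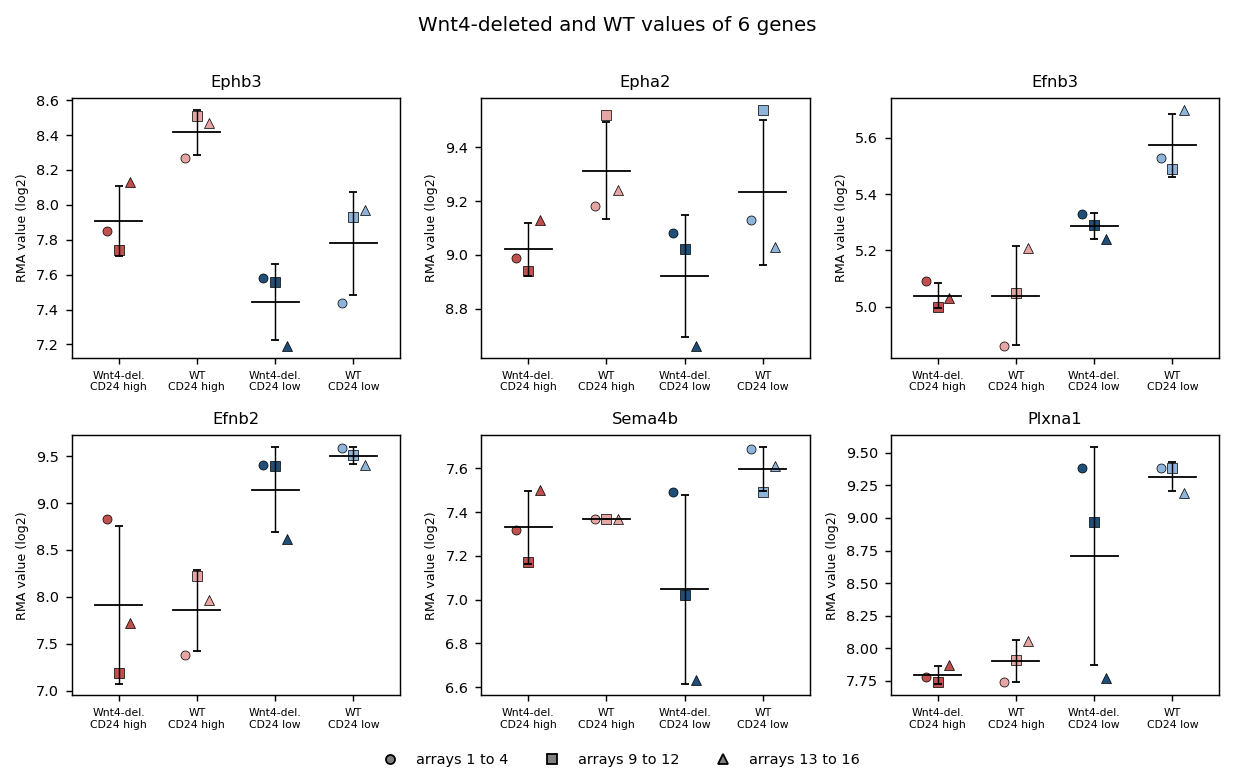
Array by array RMA values (log2, y axis) of 6 genes in the 4 groups (x axis); symbols mark the set of title numbers, horizontal lines the mean and bars the SD of 3 arrays. The Wnt4-deleted CD24 low triangle is array 15, which stands at 7.77 for Plxna1, below 8.97 to 9.38 over the rest of the CD24 low cells.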

How the data were processed

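Each of 12 sorted samples had its RNA run on its own Affymetrix gene array. The deposited values are log2 values that the authors made with RMA (Affymetrix Expression Console 1.1.2800), a method that subtracts background, equalises the distributions of arrays and fits probesets by median polish. They run from 1.62 to 13.80, which fits a log2 scale. The build behind the probesets is not given in the sources used here. Of 35556 probesets, the 21789 with 1 gene symbol in the platform annotation were kept, 1621 had several symbols and 12146 no entry. The brightest probeset on average stood for each of 19938 genes (999 had more than 1). Among members, Epha10, Ephb1, Sema4d and Sema6b had 2.

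Groups came from the sample titles. Tests used limma 3.58.1 in R 4.3.3 (lmFit, eBayes), with 1 mean per group over 12 arrays, 8 residual degrees of freedom (11.05 after moderation), two-sided, with Benjamini-Hochberg adjustment within each of 5 comparisons. The fit was tested on simulated data. No test was run on the lists. Sequences are from RefSeq. Values per array are given for the members with the largest changes and no overlap in each fraction comparison, for the non-overlapping members with the largest changes in each genotype comparison, and for the smallest p-values in the test of the difference; partners are the 5 largest changes per direction. Sema7a, Nrp1, Plxna1, Sema4c, the shared sign of the ephrins and array 15 were singled out after their values were seen. The members and lists were chosen with earlier results of these data known. Alternatives covered filters, probesets, scaling, the variance prior, weights, set blocks, marker covariates, thresholds and left-out arrays or sets.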

Additional observations from a re-analysis of the deposited data

How the results depend on the processing

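Over the 33 changes named by rule, 0 of 919 values under alternatives had the opposite sign. Most of these changes were named only if the arrays of their groups did not overlap. Leaving out arrays or sets could then not turn the sign, so a kept sign there is no support. The ephrin median between genotypes in CD24 high cells, -0.03, did turn, to 0.02 without array 12 or 14, 0.03 without arrays 9 to 12 and 0.07 without arrays 13 to 16. The counts of members that passed between fractions were 18 in Wnt4-deleted and 21 in WT cells. With the endothelial mean as a covariate 11 passed in Wnt4-deleted cells. In WT cells the calls of Efnb3, Ephb3, Plxna2, Plxna4, Plxnd1, Sema3f and Sema6c ended with it. With the mean of all non-epithelial markers 10 passed in Wnt4-deleted and 10 in WT cells. Leaving out 1 array or 1 set gave 12 to 22 in Wnt4-deleted and 11 to 23 in WT cells. The 11 came without arrays 13 to 16 and 12 without arrays 9 to 12, fits with fewer samples. In WT cells the count of Eph partners, 17, was 11 at an adjusted p of 0.01, 6 with a 2-fold change required, 26 with array weights, 9 with the non-epithelial covariate and 6 to 19 with an array or set left out (6 without arrays 9 to 12, 8 without arrays 13 to 16). The count of semaphorin partners, 12, was 7 at an adjusted p of 0.01, 20 with array weights, 7 with the non-epithelial covariate and 6 to 14 with an array or set left out (6 without arrays 13 to 16, 7 without arrays 9 to 12). The cause of these shifts was not tested, except that a stricter threshold passes fewer genes by construction. For the counts of members and partners under alternatives, the shares of all genes that passed in the same fits are not given here. A shift in such a count can therefore not be told from a shift over all genes.

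The genotype counts and the count for their difference stayed at 0 in every alternative run. Over the 23 changes between fractions named by rule, 598 of 644 values under alternatives passed with the same sign. Their sign was fixed wherever arrays were left out, since non-overlap was part of the rule. The other 46, spread over 13 of the changes, kept the sign without passing. They included Plxnd1, Nrp2, Plxna2 and Plxna4 under both or one of the marker covariates, Sema4d (0.88, adjusted p = 0.186 in Wnt4-deleted and 0.0918 in WT cells with the non-epithelial covariate) and Efnb2 in WT cells (-1.97, adjusted p = 0.0696 with that covariate). No paired analysis was possible because the groups share no replicate number in the labels, which do not call the sets pairs. An analysis within sets was possible: the set of title numbers as a fixed block gave 19 members in Wnt4-deleted and 24 in WT cells. As a random block (correlation 0.0501) it gave 19 and 21. The shares of all genes that passed in these block fits are not given here either. With 3 arrays a group, small changes of dim genes cannot be resolved. Larger changes between genotypes can also miss the threshold. Wnt4 itself had -1.20 in CD24 high cells (SE 0.19, adjusted p = 0.416 in limma) without overlap and did not pass. A genotype count of 0 thus does not show that changes were absent.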

Other observations

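Some members lie close together on chromosomes, by the RefSeq gene table on GRCm38.p6, and their values did not always go the same way. Sema3d and Sema3a are neighbours on chromosome 5, with Sema3e 3 genes further on. Between fractions Sema3d fell in both genotypes (-1.28 in Wnt4-deleted and -1.15 in WT cells), Sema3a had -0.43 and -0.35, and Sema3e 0.22 and 0.18. Sema3a and Sema3e did not pass. On chromosome 9, Sema3b and Sema3f have 3 genes between them. Sema3b stood at 7.31 and 6.90 in CD24 low arrays 3 and 1, which were also the arrays with the most skeletal muscle marker signal (8.16 and 7.13), and Sema3f at 8.31 and 8.21 in the same arrays, within or near its range of 8.31 to 8.75 in the others. On chromosome 3, Efna1, Efna3 and Efna4 are neighbours, and Efna1 was positive (0.47 and 0.19) where Efna3 (-0.39 and -0.56) and Efna4 (-0.11 and -0.45) were negative. No A ephrin passed.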
